A study of Mus musculus with 6 samples.

Results

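Beta and gamma synuclein, encoded by Sncb and Sncg, were followed in whole mouse retinas 2 days after optic nerve crush (ONC) or a sham operation. They are the 2 rows of the deposited gene tables that carry these symbols, out of 35485 genes. Synucleins are small, largely unfolded proteins that bind lipid membranes through a repeat region at their amino-terminal end. In the brain, beta synuclein is concentrated in presynaptic terminals, where synaptic vesicles are docked and released. Gamma synuclein is abundant in peripheral neurons, and in the retina it marks the retinal ganglion cells (RGCs), whose axons form the optic nerve.

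The mice were wild type male C57BL/6 animals, 12 weeks of age. Both operations laid the optic nerve bare. ONC mice then had it squeezed by forceps 2 mm from the back of the eye, over 10 seconds, and sham mice did not. Each of the 3 ONC samples and 3 sham samples was a pool of RNA from 6 retinas of 6 mice, so the spread between samples is a spread between pools. Values of single samples are given below in the order of replicates 1, 2 and 3. Exon reads, counted as read pairs, ranged from 17343945 to 18349331 per sham sample and from 20019818 to 20358008 per ONC sample. Both genes were far above the noise of counting, at 1135 exon reads or more per sample. All of their exon reads mapped uniquely, so neither gene shared reads with the other.

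The start of the coding sequence, which encodes the repeat region, is shown here because reads of the 2 genes can be told apart only where the sequences differ. The first 120 bases from the start codon are given as in the GENCODE M1 transcripts, with the bases that differ between the genes in capitals.
Sncb coding start: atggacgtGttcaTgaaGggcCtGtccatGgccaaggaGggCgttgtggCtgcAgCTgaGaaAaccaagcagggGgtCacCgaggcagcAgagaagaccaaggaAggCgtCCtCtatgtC
Sncg coding start: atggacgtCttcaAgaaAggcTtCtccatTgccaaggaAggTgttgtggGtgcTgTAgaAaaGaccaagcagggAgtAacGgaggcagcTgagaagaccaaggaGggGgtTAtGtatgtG
In this stretch 96 of the 120 bases, or 80%, were identical, against 68.3% of the 363 bases that align without a gap over the whole coding sequences. The longest run of bases present in both full coding sequences, of 402 bases in Sncb and 372 in Sncg, was 16 bases, against reads of 100 bases.

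The sequences that lie directly before the start of transcription are shown because they are the regulatory windows of 2 genes whose RNA moved differently. They are the 250 bases before the start in the RefSeq annotation of GRCm38.p6, the build to which the positions in the tables correspond, read on the minus strand from which both genes are transcribed. The Sncb window is chr13:54766596-54766845 and the Sncg window chr14:34374670-34374919. The RefSeq start of Sncb lies beyond the end of the gene in the tables, at 54766440, whereas for Sncg the 2 positions are the same. Capitals mark matches to a searched motif.
Sncb promoter: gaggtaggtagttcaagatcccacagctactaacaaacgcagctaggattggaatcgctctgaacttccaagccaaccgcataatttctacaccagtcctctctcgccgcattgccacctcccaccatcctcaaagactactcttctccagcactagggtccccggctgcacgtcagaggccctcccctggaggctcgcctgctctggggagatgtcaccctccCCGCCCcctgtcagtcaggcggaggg
Sncg promoter: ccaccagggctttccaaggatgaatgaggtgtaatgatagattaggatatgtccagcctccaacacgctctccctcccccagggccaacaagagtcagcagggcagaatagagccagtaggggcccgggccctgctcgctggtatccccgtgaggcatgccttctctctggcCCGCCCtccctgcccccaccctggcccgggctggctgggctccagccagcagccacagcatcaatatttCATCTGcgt
Each window held 1 GC box (GGGCGG, here on the opposite strand), which 32.7% of 32851 promoter windows of the same length hold. The Sncg window also held 1 E-box (CANNTG), found in 66.2% of windows, and the Sncb window held none. Neither window held the TATA box TATAAA, the cAMP response element TGACGTCA, the AP-1 site TGANTCA, the octamer ATGCAAAT or the homeodomain core TAATTA. All motifs were searched on both strands, none of these matches overlapped another, and a match is a run of letters and not a measured binding site.

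Sncg RNA fell after ONC. Its exon reads numbered 1881, 2116 and 2013 in the sham pools and 1135, 1228 and 1253 in the ONC pools, although the ONC samples were sequenced more deeply. After TMM normalization, a scaling that sets the typical gene at no change, its normalized level in CPM, counts scaled to a common library size, was 108, 116 and 118 in the sham samples and 57.3, 59.9 and 60.2 in the ONC samples. The groups did not overlap, as in 10.8% of genes in this direction, and the spread within each was small beside the gap between them. Mean normalized reads fell by 48.2%, from 114 ± 5.71 (SD, n = 3) to 59.1 ± 1.63 (SD, n = 3) CPM. The log2 fold change was -0.95 (standard error 0.07, 95% confidence interval -1.09 to -0.81, adjusted p = 2.89e-08, quasi-likelihood test of edgeR). It was called as lower at an adjusted p under 0.1, as were 508 of the 13670 genes tested (3.72%), and it also passed the fold change threshold of 1.5, as did 114 genes (0.834%). By p-value Sncg stood in place 9 among these 13670 genes, and by log2 fold change in place 121 from the lowest. In bulk retina, fewer ganglion cells and less Sncg RNA in each cell cannot be told apart.

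Sncb, the more abundant of the pair, showed no difference that passed the test. Its exon reads numbered 6828, 6817 and 6857 in the sham pools and 7803, 6822 and 7216 in the ONC pools. Its normalized level was 391, 375 and 403 CPM in the sham samples and 394, 333 and 347 in the ONC samples. ONC replicates 2 and 3 lay below the sham range, whereas ONC replicate 1 lay within it, so the groups overlapped. The log2 fold change was -0.12 (standard error 0.06, 95% confidence interval -0.26 to 0.01, adjusted p = 0.344, edgeR). The interval leaves out a fall of the size seen in Sncg and leaves in a small fall. This estimate rested on ONC replicate 1: without it the log2 fold change was -0.20 and passed the test (adjusted p = 0.00992, edgeR), and 9.23% of all genes were then called as lower.

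**Figure D1:**
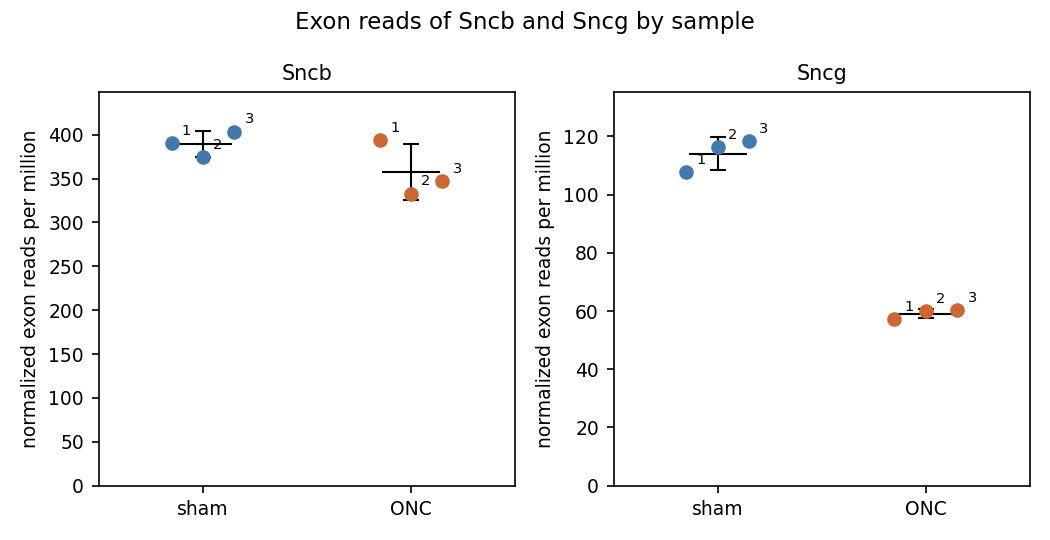
Normalized exon reads in CPM (TMM) of Sncb and Sncg in each sample; points are the pools, with replicate numbers, and bars are the group mean ± SD (n = 3). The Sncg values sit between 108 and 118 in sham and between 57.3 and 60.2 in ONC, whereas the Sncb value of ONC replicate 1, 394, lies within the sham range.

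On the scale of RPKM, which is per length of exon and so allows levels of different genes to be compared, Sncb was at 248, 238 and 234 in the sham pools and at 258, 229 and 233 in the ONC pools. Sncg was at 112, 121 and 112 in the sham samples and at 61.3, 67.4 and 65.99 in the ONC samples. Both are thus highly expressed retinal genes. Ordered by mean RPKM among the 13670 genes tested, Sncb stood in place 123 in sham and 141 in ONC, and Sncg moved from place 313 to place 726. The divisor of RPKM counts intron reads too, and on that scaling the median log2 fold change of all genes was 0.13 rather than 0.01. With the same scaling applied to the counts, the log2 fold change of Sncb was 0.00 and that of Sncg -0.82.

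The ratio of the 2 genes within a sample does not depend on any scaling between samples. Per kilobase of exon, Sncg reads amounted to 45.0%, 50.7% and 48.0% of Sncb reads in the sham pools. In the ONC pools they amounted to 23.8%, 29.4% and 28.4%. Every ONC value lay below every sham value, and the ratio of Sncg to a gene separated the groups, in either direction, for 92.6% of 13554 genes with reads in all samples. The log2 ratio to Sncb was lower by 0.82 on average, at -1.89 ± 0.165 (SD, n = 3) against -1.06 ± 0.0861 (SD, n = 3). The exact permutation test gave a two-sided p = 0.1, the smallest that 3 samples against 3 can give. The difference between the groups was several times the SD within either of them.

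**Figure D2:**
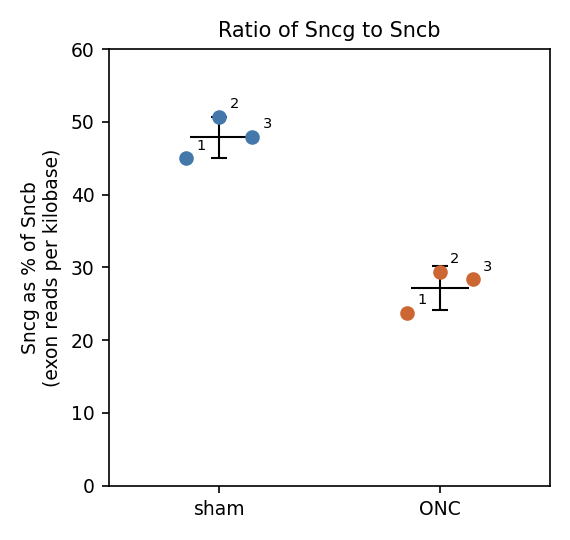
Sncg reads as a percentage of Sncb reads, both per kilobase of exon, in each sample; points are pools with replicate numbers and bars are the group mean ± SD (n = 3). The sham samples lie between 45.0% and 50.7% and the ONC samples between 23.8% and 29.4%.

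Reads that join exons across a splice junction gave the same picture for Sncg. There were 1282, 1331 and 1332 such reads in the sham pools and 781, 839 and 824 in the ONC pools. In the same edgeR test on junction reads alone, chosen after the data were seen, Sncg had a log2 fold change of -0.90 (adjusted p = 1.57e-08). Junction reads made up 62.9% to 68.2% of the Sncg exon reads in sham and 65.8% to 68.8% in ONC, so the share of spliced reads overlapped between the groups. The median coverage over the exons of Sncg, which is not scaled by depth, was 607, 657 and 649 in the sham samples and 352, 391 and 406 in the ONC samples. For Sncb the junction reads gave a log2 fold change of -0.09 (adjusted p = 0.627, edgeR).

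Intron reads, the reads on a gene that fall outside its exons, come largely from RNA that is not yet spliced. Sncb, on chromosome 13 from 54758860 to 54766440, has 6 exons of 1196 bases in total and 6385 bases of intron. Its intron reads numbered 784, 670 and 720 in the sham pools and 747, 1002 and 1133 in the ONC pools. They were thus high in ONC replicates 2 and 3, the samples in which its exon reads were lowest after normalization. As a share of all reads on the gene, intron reads were 10.3%, 8.95% and 9.50% in the sham samples and 8.74%, 12.8% and 13.6% in the ONC samples, so that the groups overlapped, whereas 2.27% of genes had a higher share in ONC without overlap. In edgeR's test on intron reads, over 13391 genes, the log2 fold change of Sncb was 0.42 (standard error 0.15, 95% confidence interval 0.11 to 0.73). The unadjusted p was 0.0117 and the adjusted p was 0.162, and 0.456% of genes were called as higher on intron reads. Normalized intron reads of Sncb were 147, 119 and 119 CPM in sham and 157, 180 and 178 in ONC, without overlap, as in 11.3% of genes. With the library sizes and TMM factors of the exon reads instead, the log2 fold change was 0.19 (adjusted p = 0.679, edgeR), and without sham replicate 1 it was 0.53 (adjusted p = 0.0914, edgeR). An exon estimate below 0 with an intron estimate above 0, as in Sncb, was found in 18.2% of the 11365 genes in both fits. Introns held 19.6% to 21.5% of all reads on genes in ONC samples and 23.4% to 29.1% in sham samples, and the part of this in the Sncb intron values was not tested.

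Sncg, on chromosome 14 from 34370274 to 34374669, has 5 exons of 732 bases in total and 3664 bases of intron, and very few reads fell there. There were 22, 22 and 13 intron reads in the sham pools and 18, 4 and 24 in the ONC pools. At this depth no difference was detectable: the log2 fold change was -0.29 with a 95% confidence interval from -1.67 to 1.09 (adjusted p = 0.858, edgeR), which also holds the fall seen on exons, and 2.24% of genes were called as lower on intron reads. Reads that cross from an exon of Sncg into an intron numbered 1, 0 and 0 in the sham samples and 7, 2 and 7 in the ONC samples. Per exon read these groups did not overlap, as in 3.46% of genes, but a handful of reads is known only within wide limits. Per kilobase, Sncb had 105 to 123 intron reads in sham and Sncg 3.55 to 6.00, a far wider gap than that between their exons.

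**Figure D3:**
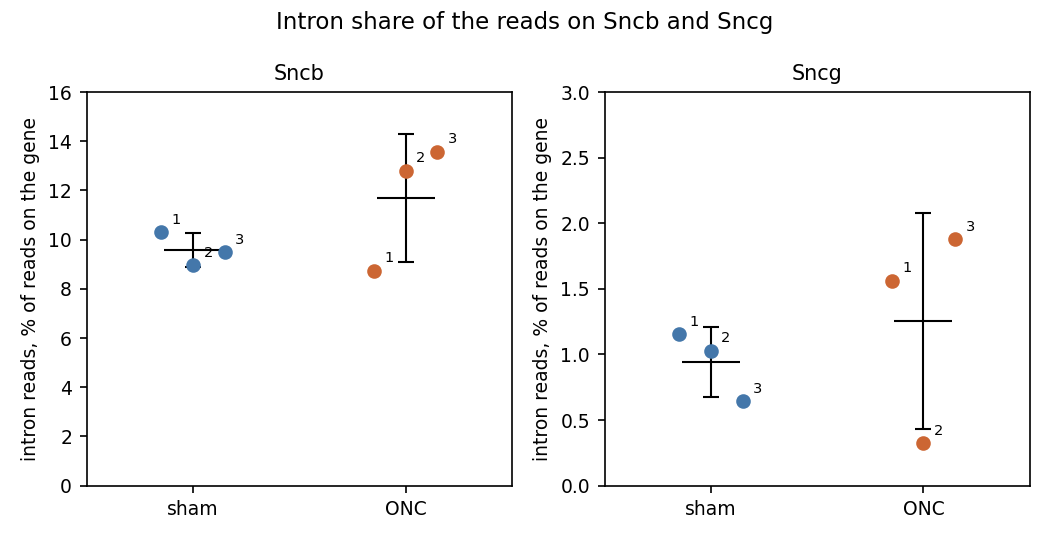
Intron reads as a percentage of all reads on Sncb and on Sncg in each sample; points are pools with replicate numbers and bars are the group mean ± SD (n = 3). Sncb ranges from 8.95% to 10.3% in sham and from 8.74% to 13.6% in ONC, and Sncg stays between 0.325% and 1.88% with overlapping groups.

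No other gene of the tables overlaps Sncb or Sncg. The gene next to Sncg is Mmrn2, which encodes a protein of the vessel wall and lies 834 bases away. With only 21 to 46 exon reads in a pool, its log2 fold change was -0.22 with a standard error of 0.41 (adjusted p = 0.836, edgeR), too wide to place it beside or apart from Sncg. The gene next to Sncb at lower coordinates is Gprin1, a neuronal gene linked to neurite growth, 9190 bases away. It had 885 to 1062 exon reads in a pool, and its log2 fold change was -0.07 (adjusted p = 0.691, edgeR). On the other sides, Eif4e1b beside Sncb and Fam25c beside Sncg had 0 exon reads in all samples.

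Among the other ganglion cell genes, Sncg belonged to the larger group that fell, and its fall was of middling size. Of 33 listed genes, all measured and tested, 23 fell, 2 rose and 8 did not pass the test (edgeR, adjusted p under 0.1), against 3.72% of all genes lower and 2.38% higher. The median log2 fold change of the list was -0.75, against 0.01 over all genes tested. The list is not independent evidence of its direction, since it holds genes singled out by the study in these samples, among them Tppp3, Pvalb, Kcnd2 and Irx2. With the scaling of RPKM the counts were 20 lower and 2 higher. Among its members, 11 had a lower log2 fold change than Sncg. The lowest was that of Scn4b, a sodium channel subunit that modulates the pore, at -3.20 (standard error 0.28), with 16 to 167 exon reads in a pool. Tppp3, a tubulin-binding protein, was at -1.48 (standard error 0.09). Nefh, the heavy neurofilament chain, was at -1.29 (standard error 0.09).

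Less lowered than Sncg were Nefl and Nefm, the light and medium neurofilament chains, with log2 fold changes of -0.53 and -0.45 (adjusted p = 4.08e-05 and 0.00187, edgeR). Thy1, a surface glycoprotein of ganglion cells, had -0.22 (adjusted p = 0.0517, edgeR). Its mean RPKM was 91.1 in sham and 85.0 in ONC, and the study, which tested RPKM values, listed Thy1 as not significant. The 2 that rose were Gap43, a growth cone protein, at 0.49 (adjusted p = 0.00585, edgeR) and Slc17a6, the vesicular glutamate transporter of ganglion cells, at 0.26 (adjusted p = 0.0525, edgeR). On junction reads neither passed (adjusted p = 0.303 and 0.205, edgeR). Without sham replicate 1, sham replicate 2, ONC replicate 2 or ONC replicate 3, Slc17a6 had an adjusted p of 0.198, 0.286, 0.146 or 0.168 (edgeR). By level, only Nefl, at an RPKM of 142, and Uchl1, a ubiquitin hydrolase of neurons, at 116, stood above Sncg in sham among the 33, and Uchl1 exceeded the 115 ± 4.98 (SD, n = 3) of Sncg by less than the spread between pools. In ONC, Nefl and Uchl1 were at 107 and 103, Thy1 was at 85.0, and Sncg was at 64.9 ± 3.21 (SD, n = 3).

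**Figure D4:**
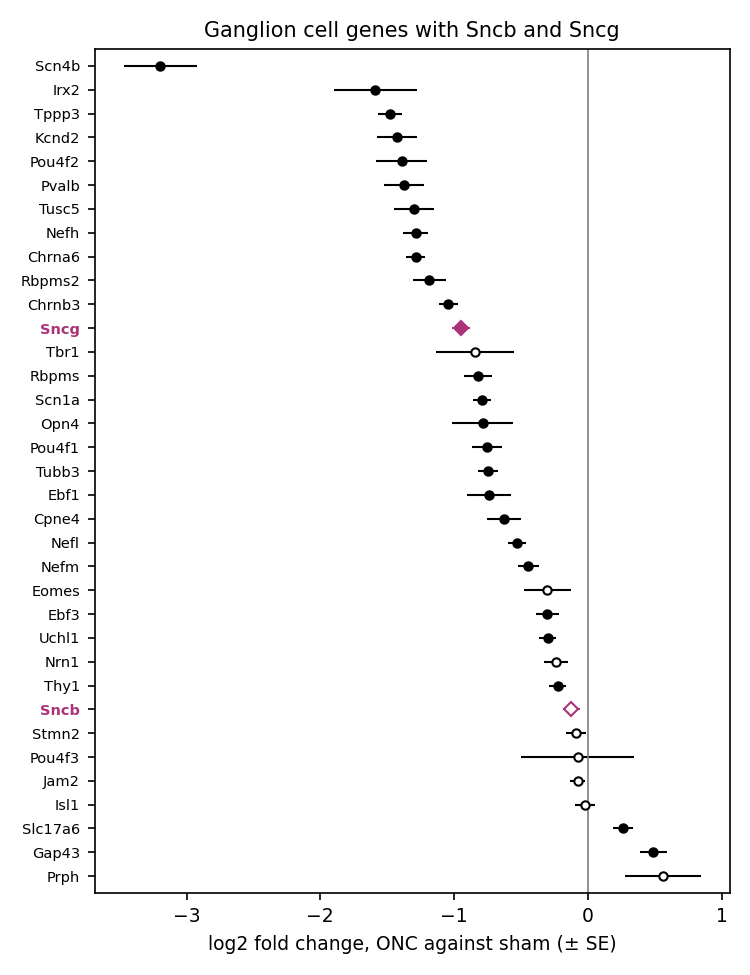
Log2 fold change (ONC against sham, ± standard error, edgeR) of 33 ganglion cell genes with Sncb and Sncg as colored diamonds; filled symbols have an adjusted p under 0.1. Sncg, at -0.95, lies between Chrnb3 and Tbr1, and Sncb, at -0.12, lies near Thy1 and Stmn2.

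Ratios of Sncg to 12 of these genes were also taken within each sample, per kilobase, to compare falls without a scaling between samples. The 12 were chosen with their fold changes known. Relative to Thy1, Sncg stood at 1.20 to 1.37 in sham and 0.721 to 0.818 in ONC. Relative to Nefl it stood at 0.786 to 0.826 in sham and 0.537 to 0.654 in ONC. Both ratios were lower in every ONC pool. Relative to Nefh the ratio went the other way, from 5.90 to 6.26 in sham and from 6.35 to 8.57 in ONC. The ratio to Rbpms, an RNA-binding protein found in ganglion cells as a class, overlapped between the groups, at 10.8 to 12.0 in sham and 10.2 to 10.9 in ONC. The groups separated in 9 of the 12 ratios, no larger a share than the 92.6% over all genes given above (two-sided exact permutation test, p = 0.1 each, 0.133 after Benjamini-Hochberg adjustment over 12), and in the other 3, to Rbpms, Pou4f1 and Pou4f2, they overlapped (exact p = 0.2 each). Pou4f1 and Pou4f2 encode transcription factors of ganglion cells.

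The genes whose pattern over the 6 samples was most like that of Sncg were then looked up among 11805 genes with a mean RPKM above 1. Likeness was the root mean square distance between the log2 normalized reads of each gene after subtraction of its own mean, for which the median over all genes was 0.493. The nearest was Chrnb3, a nicotinic acetylcholine receptor subunit, at 0.0767. Rbpms followed at 0.0844 and Scn1a, the pore-forming subunit of a sodium channel, at 0.0878. Next came Vamp1, a synaptic vesicle SNARE protein, at 0.0949 and Kcnj5, an inwardly rectifying potassium channel, at 0.0999. The log2 fold changes of these 5 genes ran from -1.04 in Chrnb3 to -0.79 in Scn1a, and 3 of them, Chrnb3, Rbpms and Scn1a, are in the list of ganglion cell genes. The nearest to Sncb were Slc24a2, a calcium exchanger of cones, Steap2, a metal reductase, Rps6ka2, a kinase, Reep6, an endoplasmic reticulum protein of rods, and Nr1d1, a repressor of the circadian clock. Their distances ran from 0.0156 to 0.0232, against a median over all genes of 0.158. In none of these 5 did the change pass the test (log2 fold changes from -0.14 to -0.09, adjusted p from 0.322 to 0.519, edgeR). The distance takes in the difference between the groups, so genes near a member share its fold change by the way they were picked. Their fold changes and test results are thus no separate result. The ganglion cell list also holds genes singled out in these samples.

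Synucleins work beside the proteins of the presynaptic terminal, so 40 genes of synaptic vesicles, SNARE complexes and the active zone were examined, of which 39 were measured. There 11 fell, 0 rose and 28 did not pass the test (edgeR, adjusted p under 0.1), against 3.72% of all genes lower, and the median log2 fold change was -0.10. At an unadjusted p under 0.05 edgeR gave 16 lower and 0 higher, DESeq2 gave 13 and 0 at an adjusted p under 0.1, and limma on log2(RPKM + 1) gave 6 and 2. Only Syt2, a calcium sensor of fast release, fell more than Sncg, at -1.09 (adjusted p = 0.000108, edgeR). Vamp1 fell by 0.83 on the log2 scale (adjusted p = 1.47e-06, edgeR) and Cplx1, which clamps and promotes vesicle fusion, by 0.53 (adjusted p = 1.78e-05, edgeR). Falls in other SNARE and vesicle genes were smaller, among them -0.36 for Cplx2, -0.35 for Rab3a and -0.25 for Snap25, which had the highest level of the list at an RPKM of 587 in sham. Among vesicle proteins that did not pass the test, the values were 0.04 for Syp (adjusted p = 0.791, edgeR), -0.06 for Syt1, -0.11 for Vamp2 and -0.16 for Sv2a, and Sncb was at -0.12. Cplx3 and Cplx4, the complexins of ribbon synapses, were at 0.02 and 0.01 and did not pass the test. The count depended on 1 library, being 22 lower without ONC replicate 1, and with the scaling of RPKM, applied to the counts, it was 6 lower and 2 higher.

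Enzymes and chaperones known to act on synucleins as a family were examined as a further list of 28 genes. Whether each acts on the beta or gamma form was not tested. Of the 27 tested, 1 fell, 1 rose and 25 did not pass, close to the 3.72% lower and 2.38% higher among all genes, so the counts are no result about the list. Its median log2 fold change was 0.03. The secreted protease Klk6 was listed at 0 reads in all samples. Uchl1 fell by 0.30 on the log2 scale (adjusted p = 0.0081, edgeR), and Ctsl, a lysosomal protease, rose by 0.33 (adjusted p = 0.00247, edgeR). Ctsd, the main lysosomal protease in synuclein breakdown, was at 0.08 (adjusted p = 0.517), and the kinases Plk2 and Csnk2a1 at 0.05 and 0.02 (adjusted p = 0.872 and 0.92, edgeR). The chaperone Hspa8 was at 0.00 (adjusted p = 0.985, edgeR), with at least 24170 exon reads per sample. With the scaling of RPKM the counts were 0 lower and 5 higher.

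**Figure D5:**
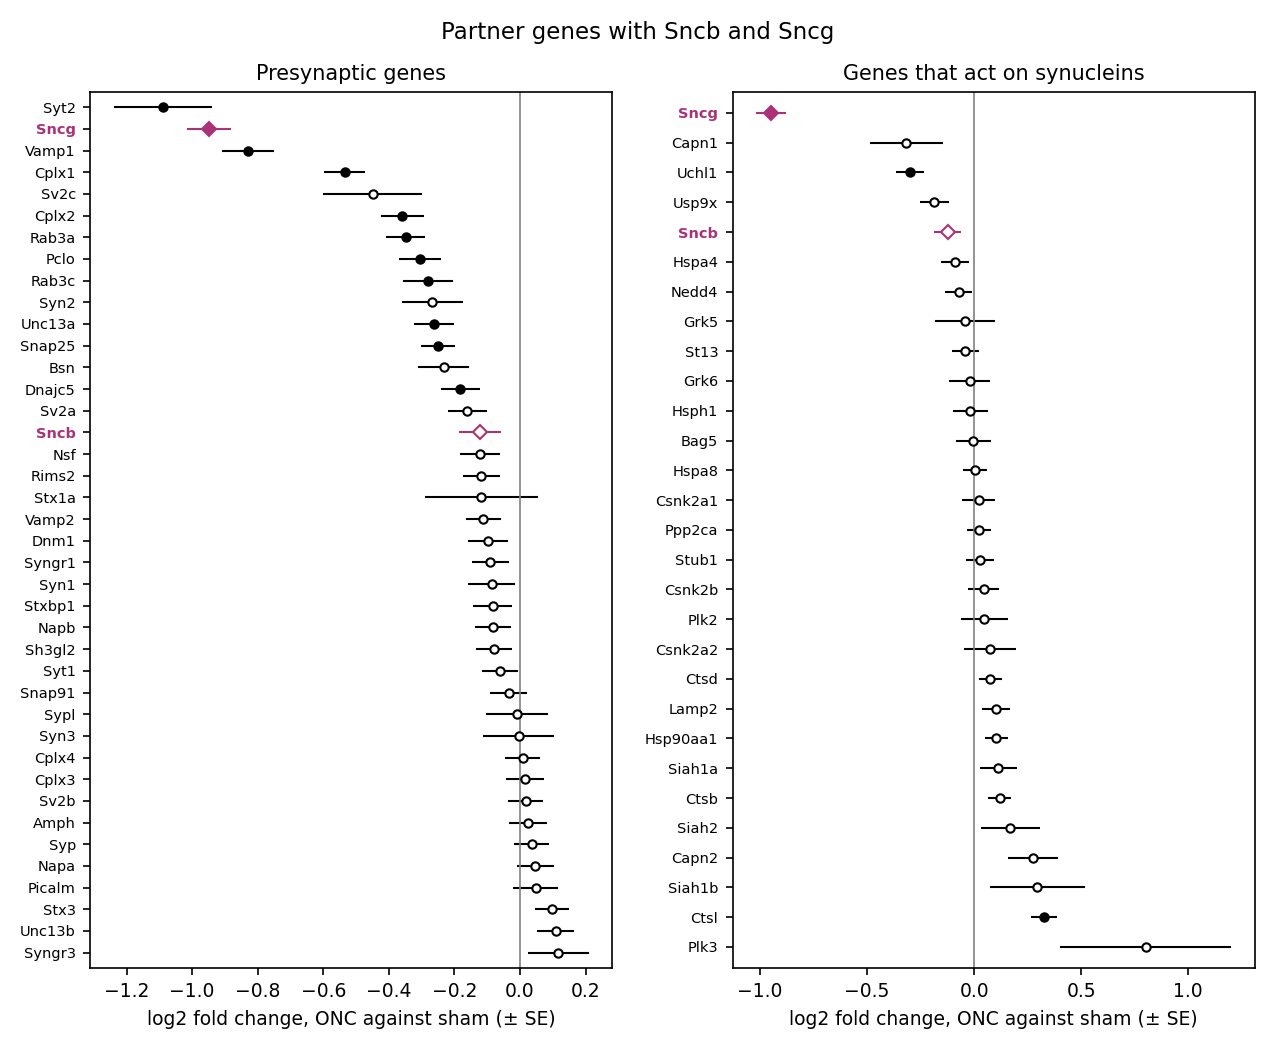
Log2 fold change (ONC against sham, ± standard error, edgeR) of presynaptic genes and of 27 genes that act on synucleins, with Sncb and Sncg as colored diamonds; filled symbols have an adjusted p under 0.1. Sncg, at -0.95, lies next to Syt2 and Vamp1 in the left panel and has a lower value than every gene in the right panel, whereas Sncb, at -0.12, lies among open symbols in both panels.

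Markers of the other cells that a whole retina holds were read in the same samples, and their part in the Sncg and Sncb values was not tested. The genes of these lists that are named because they passed the test, or were at 0, were chosen after their values were seen. The counts below stand against 3.72% of all genes called as lower and 2.38% as higher. Of 14 amacrine cell genes tested, 1 fell and the other 13 did not pass. That gene was Calb2, calretinin, which ganglion cells also express, at -0.55 (adjusted p = 2.62e-06, edgeR). The summed RPKM of the list was 439 to 487 in sham and 415 to 445 in ONC, and without Calb2 it was 246 to 284 in sham and 270 to 301 in ONC. On the scaling of RPKM the median log2 fold change of all genes was 0.13, which bears on this sum and on those below. After TMM normalization the median over the amacrine list was -0.06, with 11 of the 14 genes below 0. Of 11 bipolar cell genes and 10 genes of Muller glia and astrocytes, 0 passed the test in either direction (edgeR). At an unadjusted p under 0.05 there were 1 lower in the first list and 1 lower and 2 higher in the second, while DESeq2 called 0 and 1 and limma on log2(RPKM + 1) called 0 and 2. The highest levels were those of Gng13 and Pcp2 in the first list and Glul and Apoe in the second. Of 15 photoreceptor genes, 4 rose (Pde6b, Sag, Nr2e3 and Pde6c), while Gnat1, the rod transducin subunit and among the highest in level, gave a log2 fold change of -0.03 and did not pass the test. Of 11 microglial genes, 4 rose, among them C1qb, a complement component, at 0.81 (adjusted p = 0.00632, edgeR). The summed RPKM of the microglial list was 21.3 to 24.3 in sham and 38.1 to 41.1 in ONC. Adipocytes also express Sncg. The summed RPKM of 8 adipocyte genes was 2.30 to 4.37 in sham and 4.02 to 6.19 in ONC, with Fabp4, at 24 to 80 exon reads, and Retn, at 5 to 38, the highest and the 2 that could be tested. Neither passed (adjusted p = 0.411 and 0.985, edgeR). At an adjusted p under 0.1, DESeq2 and limma on log2(RPKM + 0.1) called 0 of the 2, whereas limma on log2(RPKM + 1) called 1 as higher. Adipoq, Cfd and Lep were listed at 0 reads in all samples, and Plin1, Cidec and Pparg had at most 17 reads in a pool. Myelin and glial precursor genes were low in both groups, with a summed RPKM of 10.98 to 13.0 in sham and 12.2 to 13.3 in ONC, led by Pmp22 and Mbp.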

How the data were processed

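Retinal RNA was sequenced from 3 ONC and 3 sham pools of 6 retinas each, as 100-base read pairs from a kit that does not mark strand. Mapping by the authors used CLC Genomics Workbench with up to 2 mismatches, and they deposited raw counts of read pairs per gene, RPKM values and the median coverage signal over exons. The study names mm9, whereas 73.3% of 29902 genes matched by symbol share a start or end with RefSeq GRCm38.p6, so positions are read as that build. RPKM rebuilt from the counts differed from the deposited values by at most 0.0005. A column of ONC group means, which 1 table also holds, was not used.

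Genes were kept where either group had a mean RPKM over 0.3, and total exon reads of these 13670 genes were compared between ONC and sham in R 4.3.3 with edgeR 4.0.16 (TMM, glmQLFit, glmQLFTest). The model held no other term, and p-values were adjusted by the Benjamini-Hochberg method over the kept genes. Calls used an adjusted p under 0.1, and DEGs also a fold change above 1.5. A standard error is the log2 fold change divided by the square root of the F statistic. Intron reads are gene reads minus exon reads, tested in the same way over genes that pass filterByExpr. Within-sample ratios were compared by exact permutation tests. Procedures were tested on simulated data. The counts simulated for edgeR had the same dispersion in every gene and no library set apart from its group, so they do not cover those features. Alternatives included DESeq2 1.42.0 and limma 3.58.1. Other computations used Python 3.11.15 with scipy 1.17.1, pandas 2.3.3 and biopython 1.88.

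The genes followed and the gene lists were chosen with earlier results of these data known. Genes named are the members, the nearest gene on each side of them, genes of the ganglion cell, presynaptic and synuclein-handling lists, the 2 highest of each other marker list, and the 5 genes nearest in pattern to each member. Some genes counted in the lists are not reported here by name or drawn. Groups were taken from the treatment labels. The depth, between 17343945 and 20358008 exon reads per sample, leaves values with few reads, such as the introns of Sncg, within wide limits. Deviations from the group mean correlated at -0.0585 to 0.00720 across genes in samples with the same replicate number, which gives no sign of pairing, and chi-square values divided by their degrees of freedom were 4.54 to 13.7 between pools of a group, so no library was counted as deposited again. ONC replicate 1 stood furthest from its group, at 13.7 against replicate 2 and 10.8 against replicate 3. ONC replicates 2 and 3 gave 4.54, and sham pools gave 5.54 to 9.00.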

Additional observations from a re-analysis of the deposited data

How the results depend on the processing

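Sncg exon reads kept their direction and their call in 19 of 19 alternatives, with log2 fold changes from -0.99 to -0.82 (adjusted p at most 4.44e-05), and the ratio of Sncg to Sncb stayed between -0.88 and -0.73 in all 9 of its own. With the replicate number as a block the values were -0.95 for Sncg (adjusted p = 2.36e-08, edgeR) and -0.13 for Sncb (adjusted p = 0.403, edgeR), and the block changed no call of either gene on exon or intron reads. The mean ratio was the same, -0.82, with an exact sign-flip p of 0.25, the smallest that 3 pairs allow. Sncb exon reads stayed below 0 in all 19, from -0.20 to -0.0018, and leaving out a sample gave -0.197 to -0.0779, past the threshold only without ONC replicate 1. Sncb intron reads were above 0 in all 12, at 0.36 to 0.53 when a sample was left out, and passed only without sham replicate 1. Sncg intron reads ranged from -0.61 to 0.15 when a sample was left out, with 0.15 without ONC replicate 2, and passed in none. Of the ganglion cell genes 16 passed with junction reads, 16 lower and 0 higher, and 21 to 26 when a sample was left out, against 25, with 1 higher instead of 2 in 4 of those 6 fits. Gap43 passed in 18 of 19 alternatives and Slc17a6 in 14 of 19. Of the presynaptic genes 7 passed with junction reads and 8 to 22 when a sample was left out, 22 of them without ONC replicate 1, against 11. Of the genes that act on synucleins, 5 passed with all gene reads as library size, 4 with limma on log2(RPKM + 0.1) and 5 on log2(RPKM + 1), all higher, against 2, with 2 to 5 when a sample was left out, the 5 without ONC replicate 1 being 4 lower and 1 higher. Over all genes 833 passed, 508 lower and 325 higher. The RPKM scaling gave 1730, 223 lower and 1507 higher, and the fit without ONC replicate 1 gave 2031. Leaving out sham replicates 2 or 3 or ONC replicates 2 or 3 gave 371, 400, 435 and 452, and junction reads gave 373. The cause of these shifts was not tested.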
